A study of Mus musculus with 42 samples.

Results

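The nuclear-encoded subunits of the oxidative phosphorylation system were examined as one group of 81 genes among the 13809 genes measured in mouse tibialis anterior (TA) muscle. Members were found by gene name, and no measured value enters the rule. Subunits with other names, such as Cyc1 of complex III, are not among them. Names that open with Ndufa, Ndufb, Ndufc, Ndufs or Ndufv and a number gave 37 members of complex I, Sdha to Sdhd gave the 4 members of complex II, names with Uqcr gave 8 members of complex III, Cox4 to Cox8 gave 15 members of complex IV and Atp5 gave 17 members of complex V. Assembly factors named Ndufaf and pseudogenes were left out. Ndufa4 and its paralog Ndufa4l2 were counted with complex I by their names, although the Ndufa4 protein is known as a part of complex IV. Atp5s and Atp5sl matched by name and were counted with complex V, but they are not known as subunits of ATP synthase. All 81 members passed the filter on low values, and they lay on 19 chromosomes.

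RNA was sequenced in 42 libraries from 11 groups of male C57BL/6J mice aged 4 months. The groups ask how disuse and the stress-inducible Sestrin proteins affect muscle. The libraries came in 2 sets, and comparisons were made within a set since how the sets were adjusted to each other is not given in the sources used here. Set 1 held wild-type (WT) mice, Sesn1SkM-Tg mice that carry human Sesn1 under the muscle creatine kinase promoter, and Sesn2SkM-Tg mice that carry tetracycline-regulated human Sesn2 switched on by a transactivator under the same promoter. Each of these genotypes was sampled untreated (basal) and after 3 days with the right hindlimb fixed by plastic sticks (immobilized), with 4 libraries a group except 3 for immobilized WT and 3 for immobilized Sesn1SkM-Tg. Set 2 held basal and immobilized mice of WT and of the whole-body knockout Sesn1KO, plus WT mice in which a piece of the sciatic nerve had been removed 3 days earlier (denervated), with 4 libraries in each of its 5 groups. Basal mice were untreated animals rather than the opposite limb of the treated ones. Nothing in the labels paired libraries across groups, and the p-values measure the spread between these libraries.

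Oxidative phosphorylation takes place in the inner mitochondrial membrane. Complexes I and II pass electrons from NADH and succinate to ubiquinone, complex III passes them on to cytochrome c, and complex IV hands them to oxygen. Complexes I, III and IV pump protons while doing so, and complex V, the ATP synthase, lets the protons flow back and makes ATP. Mitochondrial DNA encodes the core membrane subunits of complexes I, III, IV and V, while the genes described here are transcribed in the nucleus and their products are imported. Muscle has its own forms of several small complex IV subunits, and oxidative fibers hold more mitochondria than glycolytic ones.

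Expression is given as the deposited linear, normalized counts, and each library's values summed to between 722430 and 1276769. Members together made up 1.56 to 3.44% of that sum, and the mitochondrially encoded subunits 12.7 to 22.1%. In set 2 the denervated libraries summed to 722430 to 811541 against 1042060 to 1099740 in basal WT. Sesn1 mRNA in basal Sesn1SkM-Tg libraries was 41.6 to 77.6 against 15.0 to 22.1 in basal WT of set 1, and Sesn2 in basal Sesn2SkM-Tg libraries was 6.54 to 13.0 against 2.18 to 3.39. Both transgenes are human and expression was estimated on the mouse transcriptome, so these values need not give the full level of a transgene. In basal Sesn1KO libraries Sesn1 was 8.42 to 10.1 against 22.5 to 29.7 in basal WT of set 2. After immobilization the ranges met, at 19.4 to 37.3 in libraries labelled Sesn1KO and 30.7 to 53.1 in WT, because the library labelled Sesn1KO immobilized replicate 1, at 37.3, stood above the lowest WT library. The list of fast-fiber markers, which includes the general skeletal muscle genes Acta1 and Ckm, was abundant in every library, with summed levels of at least 57383.

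Before any comparison, each library was summarised by the median over the 81 members of its log2 difference from the basal WT mean of its set. In set 1, basal WT libraries stood at -0.35, -0.26, 0.00 and 0.61, and the immobilized WT libraries, at -0.69, -0.29 and -0.52, overlapped with them. Basal WT replicate 4, at 0.61, was the highest of its group for 78 of the 81 members, and basal Sesn2SkM-Tg replicate 2, at 0.95, was also the highest of its group for 78. In set 2 the basal WT libraries lay between -0.10 and 0.15, the immobilized WT libraries between -0.51 and -0.34, and the denervated libraries between -1.17 and -0.87. The 3 WT groups of set 2 did not overlap. The median over members of the within-group standard deviation on the log2 scale was 0.30 in set 1 (range 0.18 to 0.43) and 0.14 in set 2 (range 0.080 to 0.36), so set 2 resolves smaller changes.

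**Figure D1:**
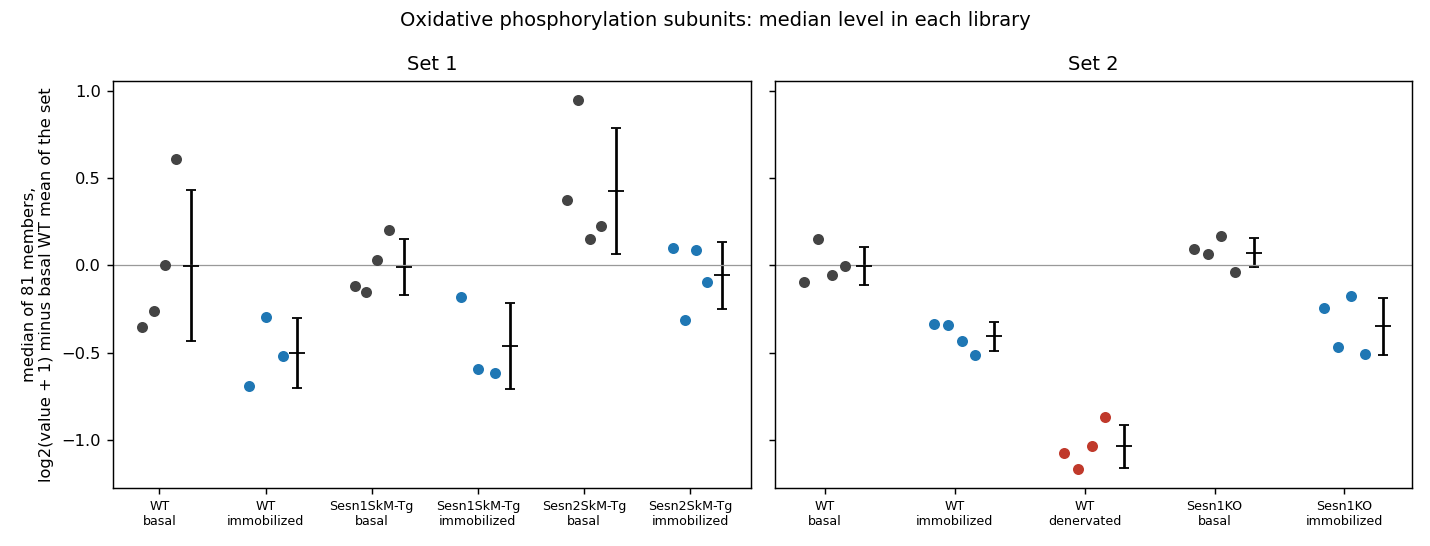
Median over the 81 members of the log2 difference from the basal WT mean of the same set, one point per library, by group, with the mean and SD of each group as a bar beside the points. Denervated libraries lie between -1.17 and -0.87, below every other library of set 2, while basal WT replicate 4 (0.61) and basal Sesn2SkM-Tg replicate 2 (0.95) stand above the rest of their groups in set 1.

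Levels between genes were compared only per length, as the mean value per kilobase of annotated exon. In basal WT of set 2 the median member of complex IV stood at 512 per kilobase, of complex V at 502, of complex III at 458, of complex II at 308 and of complex I at 211. The highest member per kilobase was Atp5b (1642), the catalytic beta subunit of ATP synthase, in complex V, and the highest in complexes IV and I were Cox8b (926), the muscle form of a small subunit, and Ndufa4 (914). The lowest were Cox4i2 (2.22), the lung-enriched form of Cox4, Ndufa4l2 (6.76), a hypoxia-inducible paralog of Ndufa4, and Atp5s (8.65). In denervated muscle the per-kilobase medians were 203 for complex IV, 227 for V, 206 for III, 119 for II and 99.8 for I, so complex I stayed the lowest and complex V stood first.

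**Figure D2:**
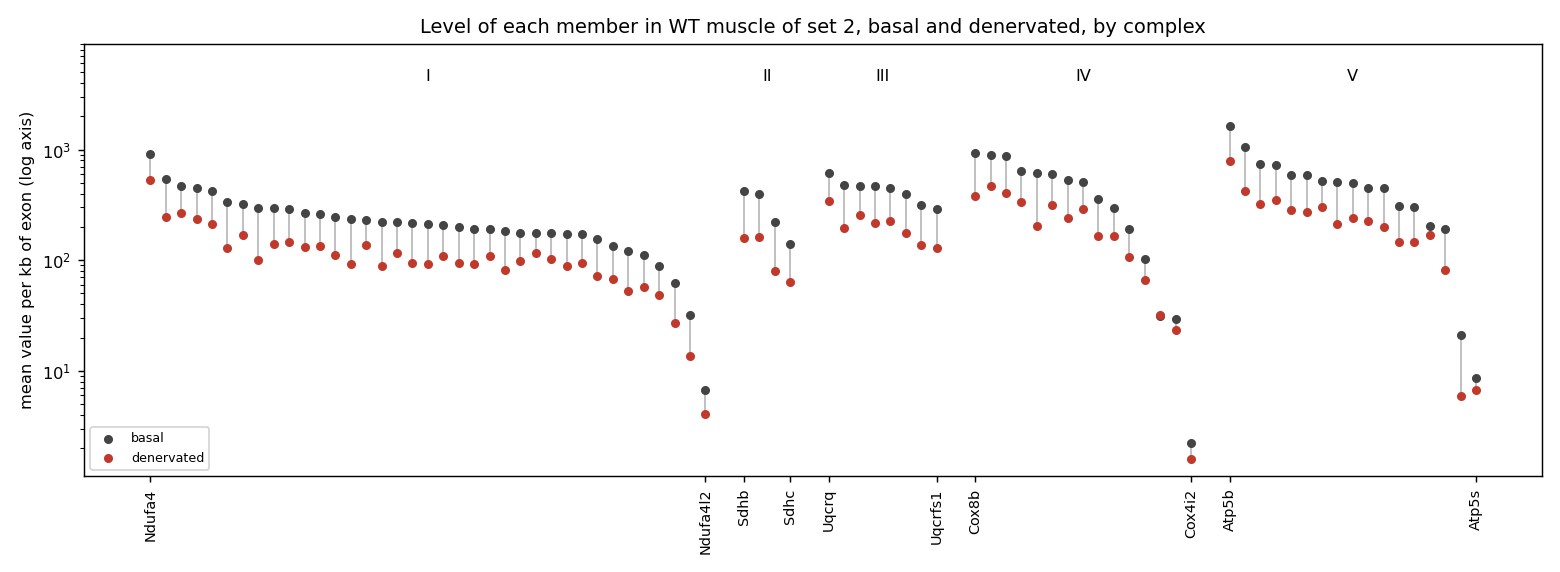
Mean value per kilobase of exon of each member in basal (dark) and denervated (red) WT muscle of set 2, by complex, on a log axis, with the highest and lowest member of each complex named. In basal muscle Atp5b (1642) is highest and Cox4i2 (2.22) lowest, and the red point lies below the dark one for every member except Cox8a.

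Promoter sequences were looked up because so many members moved together, and 64 of the 81 members were found by symbol in the RefSeq-derived promoter table (GRCm38.p6, 250 bases before to 50 after each start). Motifs were searched on both strands and may overlap one another. The letters GCGCATGC, a core of the nuclear respiratory factor NRF1 site, were in 10 of 64 member promoters (15.6%) against 3.05% of all 27025 genes. CCGGAAG, the core bound by GABP and other ETS factors, was in 16 (25.0%) against 9.93%. AAGATGGC, the YY1 core, was in 9 (14.1%) against 3.19%, and 7 of those 9 belonged to complex I. AAGGTCA, the half-site of estrogen-related receptors, was in 8 (12.5%) against 5.38%, and TATAAA was in 6 (9.38%) against 15.7%. These are counts of letters in a window and not binding sites, and no test was made of them. The reference holds every gene of the promoter table and not only the genes measured in this muscle.

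The stretches printed here lie before the start site, read 5′ to 3′ on the gene's strand, and capitals mark the motif letters found. Sdhd (chr9:50603850-50604099, minus strand) is shown as a member that fell in every disuse comparison, and Atp5l (chr9:44920743-44920992, minus strand) as one holding several of the motifs. Cox6a1 (chr5:115348982-115349208, minus strand) is the broadly expressed form of its subunit, while Cox7a1 (chr7:30183921-30184143, plus strand) and Cox8b (chr7:140900447-140900696, minus strand) are muscle forms.
Sdhd: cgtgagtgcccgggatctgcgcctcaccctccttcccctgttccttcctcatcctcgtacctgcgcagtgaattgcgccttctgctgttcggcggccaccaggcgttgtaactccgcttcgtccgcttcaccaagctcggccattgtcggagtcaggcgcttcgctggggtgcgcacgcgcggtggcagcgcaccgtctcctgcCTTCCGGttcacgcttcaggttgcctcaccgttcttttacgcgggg
Atp5l: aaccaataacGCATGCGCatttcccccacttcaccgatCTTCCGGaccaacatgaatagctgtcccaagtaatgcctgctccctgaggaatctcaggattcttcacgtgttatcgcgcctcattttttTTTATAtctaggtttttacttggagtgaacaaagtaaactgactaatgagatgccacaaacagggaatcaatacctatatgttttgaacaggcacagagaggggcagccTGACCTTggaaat
Cox6a1: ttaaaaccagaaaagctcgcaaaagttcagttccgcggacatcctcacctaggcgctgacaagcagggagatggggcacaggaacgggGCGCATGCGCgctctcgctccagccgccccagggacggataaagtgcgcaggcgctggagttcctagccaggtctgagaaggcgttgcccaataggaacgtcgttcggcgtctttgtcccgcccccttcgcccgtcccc
Cox7a1: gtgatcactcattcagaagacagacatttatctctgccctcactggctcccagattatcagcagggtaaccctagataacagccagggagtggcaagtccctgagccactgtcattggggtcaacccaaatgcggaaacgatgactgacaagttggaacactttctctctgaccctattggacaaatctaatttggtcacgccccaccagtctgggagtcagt
Cox8b: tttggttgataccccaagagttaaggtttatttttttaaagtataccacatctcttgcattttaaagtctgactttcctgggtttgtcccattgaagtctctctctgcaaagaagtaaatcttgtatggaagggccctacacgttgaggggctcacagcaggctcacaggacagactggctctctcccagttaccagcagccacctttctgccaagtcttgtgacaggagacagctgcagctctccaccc
Sdhd holds the GABP/ETS core 46 to 40 bases before its start. Atp5l holds the NRF1, GABP/ETS, TATA and estrogen-related receptor letters, and Cox6a1 an NRF1 core on each strand that overlap. In Cox7a1 and Cox8b none of the 5 motifs was found in the part printed. Outside the printed parts, the window counted also held TATAAA for Cox8b, the estrogen-related receptor letters for Sdhd and the GABP/ETS letters for Cox6a1.

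Denervation was compared with the basal state in WT mice of set 2, which asks what 3 days without nerve supply does to these transcripts. Of the 81 members 77 fell and none rose, with a median log2 fold change of -1.05, or 0.482 of the basal level. A member was called where the limma fit across all genes of the set gave it an adjusted p under 0.05 and a log2 change of 0.25 or more in size. Among all 13629 genes tested, 27.7% were called lower and 27.8% higher, against 95.1% of the members lower. All 37 members of complex I fell (median -0.99), as did all 4 of complex II (-1.34), all 8 of complex III (-1.12), 12 of 15 of complex IV (-0.93) and 16 of 17 of complex V (-1.07). For 75 members all denervated libraries lay below all basal ones, as they did for 26.3% of all genes tested. With every library scaled to the same sum, 73 members fell, 1 rose, and the member median was -0.59, while the median of all genes moved to 0.35, so relative to all genes the members stood at -0.94.

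In complex I, Ndufs1 (ENSMUSG00000025968, chr1:63143596-63176833, minus strand), the large iron-sulfur subunit of the NADH-oxidizing arm, was 605, 646, 538 and 545 in the basal libraries. It was 352, 371, 330 and 309 in the immobilized WT libraries and 220, 221, 246 and 237 in the denervated ones. The groups were ordered without overlap, and the denervated level was lower than basal by a log2 change of -1.33. Ndufb10 (ENSMUSG00000040048, chr17:24722060-24724478, minus strand), an accessory subunit of the membrane arm, showed the largest decrease in complex I, at -1.56 (SE 0.0948, limma adjusted p = 2.15e-11). Its values were 213, 242, 207 and 210 in basal, 148, 145, 131 and 146 in immobilized and 72.2, 67.5, 70.7 and 81.9 in denervated libraries. Every denervated value of Ndufb10 was under the lowest immobilized value. Further core subunits fell as well, with log2 changes of -1.38 for Ndufs7 and -1.18 for Ndufs8, which carry iron-sulfur clusters near the quinone site, -1.0 for Ndufv1, the NADH-binding flavoprotein, -1.08 for Ndufv2 and -0.96 for Ndufs3.

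In complex II, which is also an enzyme of the citric acid cycle and has no subunit encoded in mitochondria, Sdhd (ENSMUSG00000000171, chr9:50596357-50603812, minus strand) anchors the complex in the membrane. Its values were 267, 296, 269 and 265 in basal, 139, 139, 141 and 157 in immobilized and 96.8, 95.6, 97.3 and 107 in denervated WT libraries. The 3 groups were separate, and the log2 change in denervation was -1.46 (SE 0.0826, limma adjusted p = 9e-12). Sdha (ENSMUSG00000021577, chr13:74322254-74350280, minus strand), the flavoprotein that oxidizes succinate, was 1178, 1244, 1124 and 1023 in basal, 765, 834, 731 and 743 in immobilized and 436, 444, 505 and 513 in denervated libraries. Its log2 change in denervation was -1.27, next to -1.42 for the iron-sulfur subunit Sdhb and -1.13 for the other anchor, Sdhc.

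In complex III, the Rieske iron-sulfur protein Uqcrfs1 (ENSMUSG00000038462, chr13:30540308-30545362, minus strand) was 399, 435, 370 and 384 in basal, 275, 301, 276 and 236 in immobilized and 163, 157, 181 and 202 in denervated libraries. The groups again did not overlap, and the log2 change in denervation was -1.17. The core proteins Uqcrc1 and Uqcrc2 fell by 1.29 and 1.19 on the log2 scale. Uqcrc1 was between 715 and 890 in basal and between 298 and 345 in denervated libraries.

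In complex IV, the structural subunits Cox4i1, Cox5a and Cox5b, which surround the mitochondrially encoded core, fell by 1.09, 1.14 and 1.08 on the log2 scale in denervation. Cox7a1 (ENSMUSG00000074218, chr7:30184144-30186078, plus strand), the heart and muscle form of subunit 7a, fell most in the complex, at -1.56 (SE 0.146, limma adjusted p = 1.3e-08). It was 215, 340, 239 and 278 in basal, 216, 186, 177 and 168 in immobilized and 83.4, 81.1, 90.6 and 102 in denervated libraries. Immobilized and basal libraries met at 216 and 215, whereas the denervated ones lay far below both. Cox8b (ENSMUSG00000025488, chr7:140898945-140900446, minus strand) fell by 1.29 and Cox6a2, the muscle form of subunit 6a, by 0.96, next to 0.94 for Cox6b1, 0.93 for Cox6c and 0.84 for Cox7b. Cox7a2l, known for its part in supercomplexes, fell by 0.62.

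In complex V, Atp5a1 and Atp5b, the alpha and beta subunits of the catalytic head, fell by 1.33 and 1.06 on the log2 scale. Atp5b (ENSMUSG00000025393, chr10:128083273-128090391, plus strand), the most abundant member per length, was 3067, 3380, 3067 and 3073 in basal, 2489, 2536, 2336 and 2203 in immobilized and 1486, 1411, 1544 and 1593 in denervated libraries. Atp5c1, the central shaft, fell by 1.07, Atp5d, at the foot of the shaft, by 1.04, and Atp5o, which links the head to the stator, by 1.09. The 3 genes for the ring subunit c encode the same mature protein, and 2 of them fell, Atp5g1 by 1.25 and Atp5g3 by 1.2, whereas Atp5g2 had a log2 change of -0.25 that did not pass the test. Atp5sl, which is not known as a subunit of the enzyme, had the largest log2 change of all members, at -1.74 (SE 0.0972, limma adjusted p = 7.73e-12). Its values were 39.5, 45.1, 38.4 and 39.5 in basal, 21.8, 23.3, 21.3 and 22.8 in immobilized and 11.4, 9.67, 12.5 and 12.4 in denervated libraries.

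The 4 members not called in denervation were Atp5g2 and 3 broadly expressed or non-muscle forms in complex IV, Cox6a1 (log2 change -0.39), Cox4i2 (-0.30) and Cox8a (0.03). Cox8a (ENSMUSG00000035885, chr19:7215153-7217616, minus strand), the form of subunit 8 found in most tissues, was 12.2, 21.5, 18.8 and 15.9 in basal and 23.7, 14.5, 15.5 and 16.2 in denervated libraries, so the groups overlapped. Cox6a1 was 15.0, 17.4, 18.3 and 17.2 in basal and 20.4, 12.1, 9.04 and 11.5 in denervated libraries. Cox8a is expressed at a low level beside Cox8b, which was between 302 and 385 in the same basal libraries. Cox7a2, the broadly expressed partner of Cox7a1, was among the members called lower in denervation. The broadly expressed forms therefore did not all stay uncalled.

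**Figure D3:**
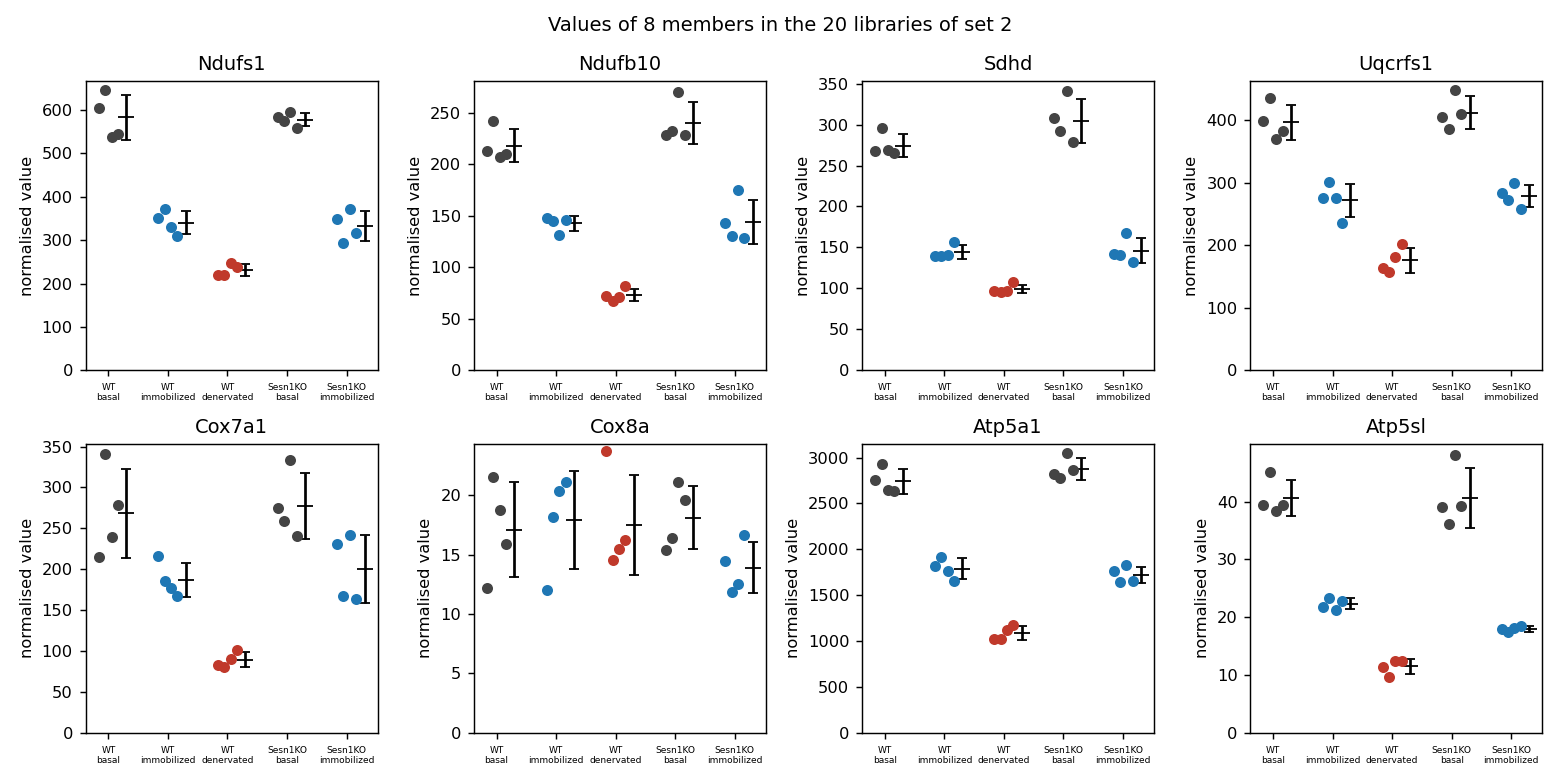
Normalized value of 8 members in each of the 20 libraries of set 2, on linear axes from 0, one point per library with the group mean and SD beside the points. In WT, Sdhd falls from 265 to 296 in basal to 139 to 157 in immobilized and 95.6 to 107 in denervated libraries, while Cox8a overlaps between groups.

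Immobilization in WT mice of set 2 gave the same direction with smaller changes. Of the 81 members 63 fell and none rose, with a median log2 fold change of -0.40 (0.759 of basal), against 17.7% of all genes called lower and 16.2% called higher. Complex I had 31 of 37 members lower (median -0.38), complex II 4 of 4 (-0.58), complex III 6 of 8 (-0.45), complex IV 8 of 15 (-0.34) and complex V 14 of 17 (-0.43). The largest changes were those of Sdhd (-0.92, SE 0.0826, limma adjusted p = 5.65e-08), Atp5sl (-0.83, adjusted p = 1.68e-06) and Ndufs1 (-0.77, adjusted p = 8.53e-07). For 64 members all immobilized libraries lay below all basal ones, as for 16.3% of all genes tested.

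The core subunits of complexes I, II, III and V that passed the test fell by amounts between 0.35 for Ndufv1 and 0.92 for Sdhd on the log2 scale. In complex IV, Cox4i1 fell by 0.34 and Cox5a by 0.58, while Cox5b (-0.16) was not called. The muscle forms Cox7a1 (-0.51) and Cox8b (-0.56) fell, and Cox6a2 (-0.16) did not pass. Other members that were not called included Cox6a1 (-0.11), Cox8a (0.06), Atp5g2 (0.12), Ndufa4l2 (-0.37), Cox4i2 (-0.31), Cox7a2l (-0.22) and Atp5s (-0.19).

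Denervated and immobilized WT muscle of set 2 were also compared directly, to ask whether loss of the nerve differed from loss of movement. Of the 81 members 76 were lower in denervated muscle and none higher, with a median log2 difference of -0.61 (0.656 of the immobilized level), against 18.4% of all genes lower and 20.5% higher. The largest differences were those of Cox7a1 (-1.06, limma adjusted p = 7.66e-06), Ndufb10 (-0.96) and Cox5b (-0.92). Complex medians lay between -0.64 for complex II and -0.56 for complex I, with -0.63 for III, -0.58 for IV and -0.63 for V. Members not called were Cox6a1, Ndufa4l2, Atp5s, Cox8a and Cox4i2. With every library scaled to the same sum, 44 members were lower, with a median of -0.27 and a median over all genes of 0.26.

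Markers of other features moved beside these results. In denervation all 9 fast-fiber markers fell (median log2 change -1.02), with summed levels of 57383 to 74263 against 136742 to 151906 in basal WT. All 4 endothelial markers fell (sum 113 to 147 against 227 to 291), as did all 4 adipocyte markers and all 3 markers of smooth muscle and pericytes. Myh2, the myosin of oxidative fast fibers, fell from 548 to 1381 in basal to 115 to 242. The slow-fiber, leukocyte, fibroblast, Schwann cell, satellite cell and tendon lists are not given here for denervation against basal. The falls named therefore do not describe every list. In immobilized WT of set 2, 3 fast-fiber markers fell and 1 rose, with sums of 122085 to 132879, while all 4 endothelial markers and all 3 smooth muscle and pericyte markers (sum 187 to 342 against 357 to 579) fell, 2 of 6 leukocyte markers rose and Myh2 rose to 1263 to 2447. Other lists went both ways in denervated against immobilized WT. Of the slow-fiber markers Atp2a2 was higher (0.70) and Myl3 lower (-3.04), with Myh7, Tnni1, Tnnt1 and Tnnc1 not called. The tendon marker Scx was higher (2.31), with Tnmd and Fmod not called. The leukocyte markers Lyz2 (-1.56) and Csf1r (-1.15) were lower, with the rest of that list not called. In bulk muscle, fewer cells of a type and less RNA per cell cannot be told apart. The part of these markers in the change of the members was not tested.

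Immobilization in WT mice of set 1 gave 29 members lower and 1 higher, with a median log2 change of -0.49 (0.712 of basal), against 14.5% of all genes lower and 14.9% higher. Of complex I 12 members fell, of complex II all 4, of complex III 3, of complex IV 2 and of complex V 8, with medians of -0.46, -0.86, -0.53, -0.36 and -0.58. Atp5sl (-1.36, SE 0.234, limma adjusted p = 0.000318), Ndufs1 (-1.03, SE 0.164, adjusted p = 0.000166) and Sdhd (-1.01, SE 0.238, adjusted p = 0.00352) changed most, and core subunits Atp5a1 (-0.97), Sdha (-0.93) and Uqcrc1 (-0.92) followed. Ndufs1 was 473, 542, 614 and 443 in basal and 271, 244 and 238 in immobilized WT libraries. Sdhd was 176, 208, 239 and 434 in basal and 125, 139 and 106 in immobilized libraries, where the value of 434 belongs to basal WT replicate 4.

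The call count in set 1 rested on single libraries. It was 17 without basal WT replicate 4, 18 without immobilized WT replicate 1 and 8 without immobilized WT replicate 3. The median lay between -0.60 and -0.28 with 1 library left out, at its weakest without basal WT replicate 4. With every library scaled to the same sum, 7 members were lower and 3 higher, the member median was -0.15 and the median over all genes was 0.28, so relative to all genes the members stood at -0.43. The difference between the WT immobilization effects of the sets was called for none of the 81 members (limma, median 0.10, 5 at an unadjusted p under 0.05), where 6.2% of the 13763 genes tested in both sets were called.

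The member that rose in set 1 was Cox8a (log2 change 0.69, SE 0.202, limma adjusted p = 0.0142), at 8.73, 8.84, 11.6 and 15.6 in basal and 15.3, 20.4 and 19.4 in immobilized WT libraries. The groups overlapped by 1 library, basal WT replicate 4. In set 2 its immobilized libraries (12, 18.2, 20.3 and 21.1) overlapped widely with the basal ones. Cox6a1 stood at 7.55, 8.83, 13.8 and 17.8 in basal and 14.8, 20.4 and 20.1 in immobilized WT of set 1, a log2 change of 0.64 that did not pass the test.

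**Figure D4:**
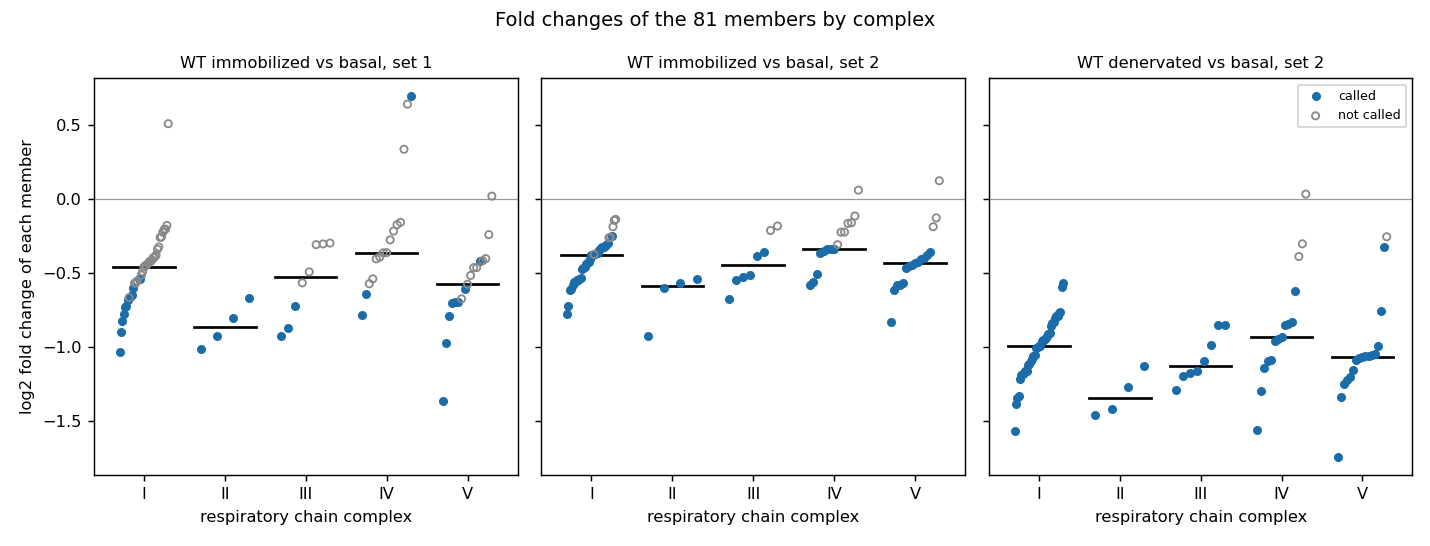
Log2 fold change of each member by complex in WT muscle, for immobilization in set 1, immobilization in set 2 and denervation, with filled points for called members, open points for the rest and a line at each median. The complex medians of denervation run from -1.34 (II) to -0.93 (IV), and those of immobilization in both sets lie between -0.86 and -0.34.

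Sesn1SkM-Tg mice, with Sesn1 raised in muscle, were immobilized in set 1. Of the 81 members 24 fell and 3 rose, with a median log2 change of -0.46 (0.726 of basal), against 16.5% of all genes lower and 18.2% higher. By complex, 8 fell in I, 3 in II, 4 in III, 2 in IV and 7 in V, and Atp5sl (-0.95), Ndufs1 (-0.95) and Sdha (-0.91) changed most. The 3 that rose were Ndufa4l2 (0.74, limma adjusted p = 0.0233), Cox6a1 (0.67, adjusted p = 0.04) and Cox8a (0.63, adjusted p = 0.0206). Ndufs1 was 515, 486, 441 and 513 in basal and 337, 245 and 194 in immobilized Sesn1SkM-Tg libraries, and Cox6a1 was 10.9, 13.8, 13.8 and 13.5 in basal and 15.1, 21.2 and 29.7 in immobilized ones. The groups did not overlap for either gene. The count of 27 calls was 17 without basal replicate 3, 13 without basal replicate 4, 43 without immobilized replicate 1, 8 without immobilized replicate 2 and 5 without immobilized replicate 3. With equal library sums 7 members were lower and 4 higher.

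Compared with WT directly, Sesn1SkM-Tg muscle gave no called member. In basal muscle the median log2 difference was -0.01, with 0 members at an unadjusted p under 0.05 in the limma fit, where 0.0292% of all genes were called. In immobilized muscle it was 0.02, again with 0 at an unadjusted p under 0.05 and 0.0073% of all genes called. The difference between the immobilization effects of Sesn1SkM-Tg and WT had a median of 0.04, with 0 members and 0.0% of all genes called.

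In Sesn2SkM-Tg mice 36 members fell on immobilization and 1 rose, with a median log2 change of -0.49 (0.713 of basal), against 15.7% of all genes lower and 15.0% higher. By complex, 20 fell in I, 3 in II, 5 in III, 1 in IV and 7 in V. The largest decreases were those of Ndufs1 (-1.18, limma adjusted p = 9.56e-06), Atp5sl (-1.08) and Sdha (-0.85). Ndufs1 was 621, 586, 554 and 619 in basal and 330, 214, 272 and 247 in immobilized Sesn2SkM-Tg libraries, with no overlap. Ndufa4l2 rose (0.79, adjusted p = 0.0115), from 5.5, 10.7, 3.66 and 3.78 in basal to 8.42, 11, 12 and 9.24 in immobilized libraries, which overlap through basal replicate 2. The count of 37 calls was 14 without basal replicate 2, 11 without immobilized replicate 2 and 18 without immobilized replicate 4. The median was -0.32 without basal replicate 2, and with equal library sums 7 members were lower and 3 higher.

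Beside the changes in set 1, leukocyte marker sums rose from 34.6 to 51.7 in basal WT to 162 to 341 in immobilized WT, with all 6 markers called higher there and in Sesn1SkM-Tg and 3 of 6 in Sesn2SkM-Tg. Fast-fiber markers fell for 4 of 9 genes in WT, 4 in Sesn1SkM-Tg and 5 in Sesn2SkM-Tg, and all 3 Schwann cell markers rose in each of the genotypes. Fibroblast markers rose for 3 of 4 genes in WT, 4 in Sesn1SkM-Tg and 0 in Sesn2SkM-Tg. Of the 3 smooth muscle and pericyte markers 2 rose in WT (sum 388 to 481 against 148 to 295 in basal) and 3 in each transgenic line. Of the 4 endothelial markers 2 rose and 1 fell in WT (sum 189 to 220 against 147 to 198), and 3 rose in each transgenic line. In set 2 no Schwann cell marker rose on immobilization. Their part in the member changes was not tested.

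The members had higher medians in Sesn2SkM-Tg than in WT muscle of set 1 in both states, though few single members passed the test. In basal muscle the median log2 difference over the members was 0.42. At an unadjusted limma p under 0.05 there were 42 members, a count for which no share of all genes is given here. By the adjusted call 4 members were higher, against 1.5% of all genes. The 4 were Cox8b (0.91, limma adjusted p = 0.0164), Cox8a (0.86, adjusted p = 0.0137), Ndufa5 (0.72, adjusted p = 0.0388) and Ndufa1 (0.65, adjusted p = 0.0206), the last pair being small complex I subunits. Without basal WT replicate 4 the count was 45, and it was 0 without basal WT replicate 1, basal WT replicate 2 or basal Sesn2SkM-Tg replicate 2. Without both high libraries, basal WT replicate 4 and basal Sesn2SkM-Tg replicate 2, it was 18, and it was 0 when the fit held these 2 groups alone. The median of 0.42 was 0.25 without basal Sesn2SkM-Tg replicate 2 and 0.61 without basal WT replicate 4.

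In immobilized muscle the median difference between Sesn2SkM-Tg and WT was 0.43. At an unadjusted limma p under 0.05 there were 37 members, again without a share of all genes to set beside them. By the adjusted call 2 members were higher, against 1.65% of all genes. Cox8b (1.03, adjusted p = 0.0166 in limma) was 133, 200 and 156 in WT and 380, 261, 364 and 323 in Sesn2SkM-Tg libraries. Uqcr10, a small subunit of complex III, was 115, 157 and 131 in WT and 235, 203, 243 and 218 in Sesn2SkM-Tg libraries (0.74, adjusted p = 0.0473). For 37 of the 81 members all immobilized Sesn2SkM-Tg libraries lay above all immobilized WT ones, as for 11.5% of all genes tested. In basal muscle this held for 4 members and 4.28% of all genes tested. Median differences of complex II were 0.12 in basal and 0.25 in immobilized muscle, next to 0.50 and 0.51 for complex IV. Complex II has 4 members, and the complexes were not tested against each other. No member was called for a difference between the immobilization effects of Sesn2SkM-Tg and WT (limma, median 0.04, 0 at an unadjusted p under 0.05, 0.0073% of all genes called), and in the comparison of immobilized muscle 0 or 1 members were called whichever of its 7 libraries was left out. In immobilized muscle 2 of 6 leukocyte markers were lower in Sesn2SkM-Tg (sum 82.6 to 236 against 162 to 341 in WT), and their part in the member differences was not tested.

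Sesn1KO mice were immobilized in set 2, to ask whether loss of Sesn1 alters the response. Of the 81 members 59 fell and none rose, with a median log2 change of -0.39 (0.762 of basal), against 19.9% of all genes lower and 17.2% higher. By complex, 27 fell in I, 4 in II, 6 in III, 9 in IV and 13 in V. Atp5sl (-1.12, limma adjusted p = 2.14e-08), Sdhd (-1.06, adjusted p = 5.47e-09) and Ndufc2 (-0.81), an accessory subunit of complex I, changed most. For 45 members the immobilized libraries all lay below the basal ones, as for 17.1% of all genes tested. Atp5sl was 39.0, 36.1, 48.1 and 39.2 in basal and 17.9, 17.4, 18.2 and 18.5 in immobilized Sesn1KO libraries, which did not overlap.

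No member was called between Sesn1KO and WT. In basal muscle the median difference was 0.07, with 3 members at an unadjusted p under 0.05 in limma and 0.147% of all genes called. In immobilized muscle it was 0.06, with 5 at an unadjusted p under 0.05 and 0.947% of all genes called, and 1 member was called without the library labelled Sesn1KO immobilized replicate 4. The difference between the immobilization effects of Sesn1KO and WT had a median of -0.02, with 0 members called, 1 at an unadjusted p under 0.05, and 0.022% of all genes called. These shares of all genes refer to adjusted calls, and none is given for the counts at an unadjusted p.

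Muscle and broadly expressed forms of the same subunit were compared within each library as a log2 ratio, which is free of library scaling. Ndufa4l2 with Ndufa4, and Cox4i2 with Cox4i1, were taken in the same way as paralogs, although neither Ndufa4l2 nor Cox4i2 is a muscle form. Of 24 ratio comparisons between a disuse group and its basal group, 12 had no overlap between groups, 6 had a raw p under 0.05 by two-sided exact permutation tests, and none an adjusted p under 0.05 (smallest 0.114). The smallest p the design allows is 0.0286 for 4 against 4 libraries and 0.0571 for 3 against 4. The Cox4i2 to Cox4i1 ratio was not tested because Cox4i2 had values below 1. Markers of other cell types moved in the same comparisons, and their part in the ratios was not tested.

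The Cox7a1 to Cox7a2 log2 ratio was 0.88, 1.32, 1.00 and 1.04 in basal WT of set 2 and 0.26, 0.36, 0.47 and 0.30 in denervated muscle, a difference of -0.71 (exact permutation p = 0.0286). The immobilized libraries, at 1.13, 0.83, 0.80 and 0.82, overlapped with basal. The Cox8b to Cox8a ratio was 4.63, 4.16, 4.04 and 4.41 in basal and 2.45, 2.92, 3.14 and 3.38 in denervated libraries, without overlap, a difference of -1.34.

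In set 1 the Cox8b to Cox8a ratio was 4.46, 4.48, 4.47 and 4.43 in basal WT and 3.12, 3.29 and 3.01 in immobilized WT, a difference of -1.32 without overlap (exact permutation p = 0.0571). Its differences in Sesn1SkM-Tg and Sesn2SkM-Tg were -1.30 and -0.95, also without overlap. In set 2 the immobilization differences were -0.63 in WT and -0.22 in Sesn1KO, and the groups overlapped. The Ndufa4l2 to Ndufa4 ratio differed by 0.93 in WT, 1.33 in Sesn1SkM-Tg and 1.2 in Sesn2SkM-Tg of set 1, without overlap, and by -0.19 in WT and -0.21 in Sesn1KO of set 2 and 0.12 in denervation. Cox6a2 to Cox6a1 differed by -0.86 in WT, -0.99 in Sesn1SkM-Tg and -0.69 in Sesn2SkM-Tg of set 1 and by -0.54 in denervation, with overlap in Sesn1SkM-Tg and in denervation (exact permutation p = 0.114 and 0.171), and by -0.04 in WT and 0.04 in Sesn1KO on immobilization in set 2. The Cox7a1 to Cox7a2 ratio differed by -0.39 in WT, -0.40 in Sesn1SkM-Tg and -0.49 in Sesn2SkM-Tg of set 1, with overlap in Sesn1SkM-Tg, and by -0.17 in WT and -0.12 in Sesn1KO of set 2. With 1 library left out, the denervation differences ranged from -0.77 to -0.63 for Cox7a1 to Cox7a2, from -1.47 to -1.16 for Cox8b to Cox8a and from -0.74 to -0.26 for Cox6a2 to Cox6a1, the value of -0.26 being without denervated replicate 1.

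**Figure D5:**
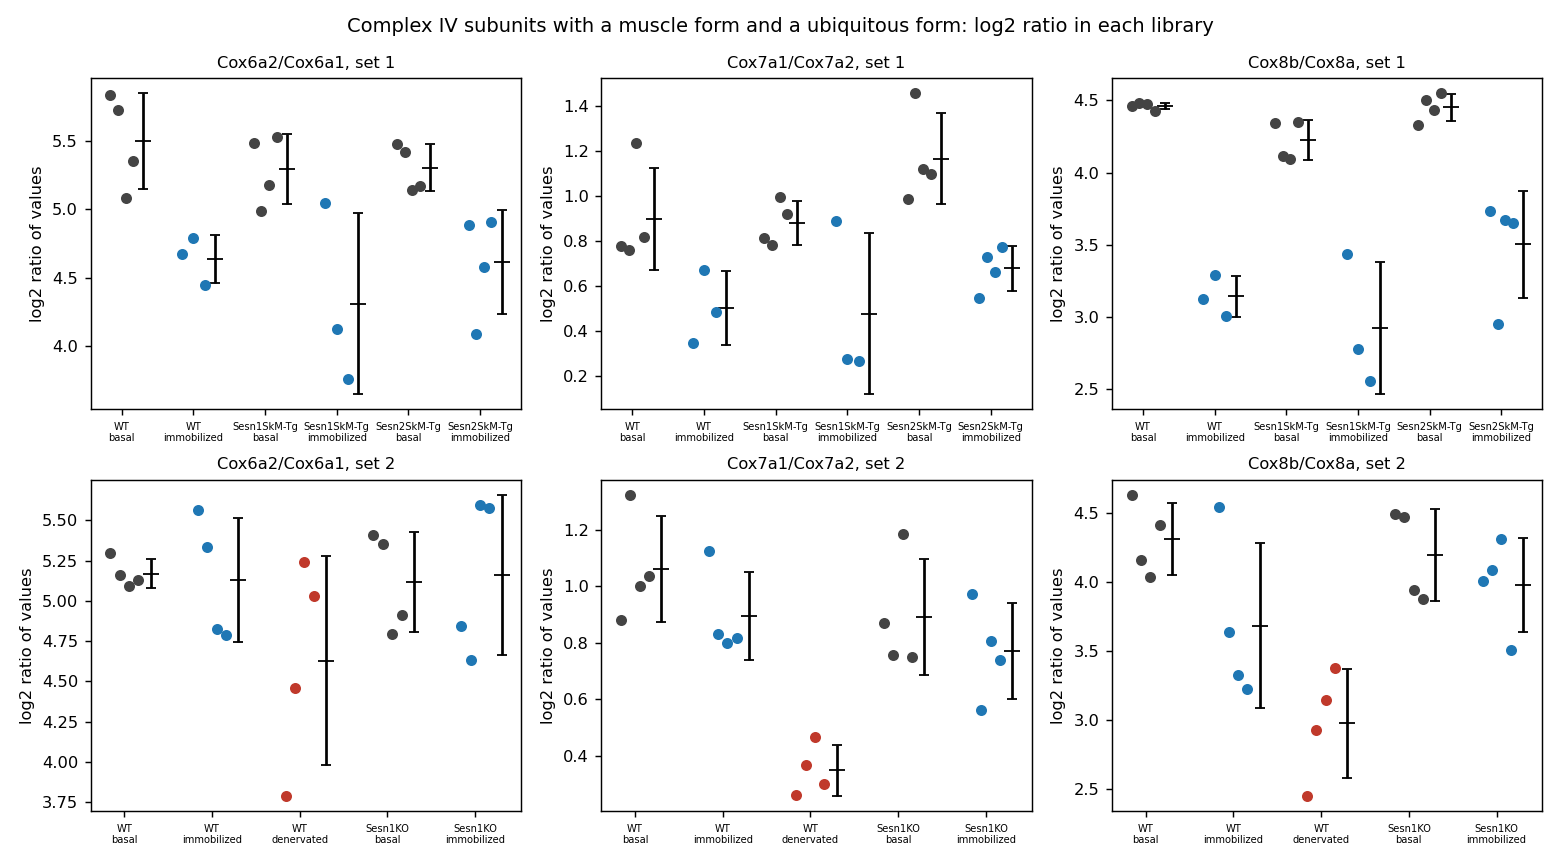
Log2 ratio of the muscle form to the broadly expressed form of 3 complex IV subunits in each library, by group and set, with the group mean and SD beside the points (axes do not start at 0). In denervated muscle of set 2 the Cox7a1 to Cox7a2 ratio lies between 0.26 and 0.47 against 0.88 to 1.32 in basal WT.

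Genes related to the members were followed through lists fixed by name, and their counts stand beside the shares of all genes called lower. That share was 27.7% in denervation. On immobilization it was 17.7% in WT of set 2, 19.9% in Sesn1KO, 14.5% in WT of set 1, 16.5% in Sesn1SkM-Tg and 15.7% in Sesn2SkM-Tg. Of 14 partners outside the name rule, among them Cyc1 and Cycs for cytochromes c1 and c, the adenine nucleotide carriers, the voltage-dependent anion channels and citrate synthase (Cs), 13 fell and 1 rose in denervation. Some of these partners, such as Cyc1 of complex III and Ndufab1 of complex I, are themselves subunits that the name rule did not match. Cyc1 fell by 1.44, Cs by 1.38 and Slc25a4, the muscle nucleotide carrier, by 1.59 on the log2 scale, and the one that rose was Slc25a5 (0.96), the broadly expressed carrier. In immobilized WT 12 partners fell in set 2 and 9 in set 1, and 12 fell in Sesn1KO, 8 in Sesn1SkM-Tg and 9 in Sesn2SkM-Tg.

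All 13 mitochondrially encoded subunits fell in denervation, with a median log2 change of -0.70, a range from -0.95 for mt-Nd2 to -0.53 for mt-Cytb, and -0.83 for mt-Co1. On immobilization 9 fell in WT of set 2 and 9 in Sesn1KO, while 6 fell in Sesn2SkM-Tg, 0 in Sesn1SkM-Tg and 0 in WT of set 1. In WT of set 1 the log2 changes ran from -0.55 for mt-Atp8 (limma adjusted p = 0.0518) to -0.05 for mt-Co3. The count of 0 there does not show that these transcripts stayed level. Of 45 assembly factors 24 fell and 4 rose in denervation, with a median of -0.47, and on immobilization 24 fell in WT of set 2, 28 in Sesn1KO, 18 in WT of set 1, 23 in Sesn1SkM-Tg and 21 in Sesn2SkM-Tg. Among 14 regulators of mitochondrial biogenesis, 8 fell in denervation, led by Perm1 (-4.94), Ppargc1a (-2.04) and Esrra (-1.70), with Tfam at -0.47. Nrf1 (0.17) and Yy1 (0.09), whose motif letters were counted in the promoters, did not pass the test, and Gabpa fell by 0.31. On immobilization 6 regulators fell in WT of set 2, 5 in Sesn1KO, 7 in WT of set 1, 7 in Sesn1SkM-Tg and 6 in Sesn2SkM-Tg.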

How the data were processed

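RNA of 42 mouse TA libraries was sequenced. The authors trimmed reads with cutadapt 1.7.1 (reads under 30 bp discarded), estimated expression with RSEM 1.2.20 on the GRCm38 transcriptome (Ensembl release 76) and used limma for normalization. What the authors deposited is a signal of normalized counts (linear scale, 13809 genes, lowest value 0.00476), so read depth per library is unknown and no counting interval was made. The filter on genes and the adjustment between sets are not given in the sources used here. RSEM splits reads shared by near-identical copies, so members with close paralogs or pseudogenes are uncertain.

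Values were tested as log2(value + 1) with limma 3.58.1 in R 4.3.3 (empirical Bayes with trend, Benjamini-Hochberg adjustment over all genes at or above 1 in at least 1 library of the set, 13705 in set 1 and 13629 in set 2), all groups of a set in one fit. Fold changes on this scale understate the change of low genes. Calls needed an adjusted p under 0.05 with a log2 change of 0.25 or more in size. Shares of all genes called refer to this rule, and no share is given for counts at an unadjusted p. Isoform ratios were tested by two-sided exact permutation (scipy 1.17.1). Exon lengths came from GENCODE M21, which matched all 81 members, and promoters from RefSeq-derived GRCm38.p6. The fit was tested on simulated data. The members and lists were chosen with earlier results of these data known. The values of 1 member are not reported here. Named genes were core subunits and isoform pairs fixed by name, the 3 largest changes each way in a comparison, members called against the majority, and all called members where 5 or fewer; the promoter examples, Myh2, and the members listed as not called were chosen after their values were seen. Alternatives were another pseudocount, other filters on low values, quantile, median and total scaling, no trend, only the compared groups, the replicate number as a block, no fold threshold and leaving out each library. Leaving out both high basal libraries of set 1 was chosen after seeing the data. Same-numbered libraries deviated together with a correlation over 0.1 in 7 of 22 pairs (range -0.22 to 0.15). In set 1, replicates 1 and 2 of Sesn1SkM-Tg (0.154 and 0.13) and of Sesn2SkM-Tg (0.131 and 0.128) matched their own number best. Replicates 3 and 4 of Sesn2SkM-Tg (0.021 and 0.0614) did not. The main fit did not use the numbers as pairs, and this check cannot show whether same-numbered libraries of set 1 share an effect.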

Additional observations from a re-analysis of the deposited data

Results flagged for a closer look

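Each check took 1 quantity in 1 group of 4 libraries, and 16 of 198 checks found 1 library far from the other 3. Chance gives about 1 in 20 for a single check. The quantities move together within a library, so the checks are not independent and the count is not compared with chance. In basal Sesn1SkM-Tg, replicate 4 stood high for Atp5a1 (3012 against 2076 to 2211), Atp5b (3317 against 2547 to 2599) and the complex II median (0.167 against -0.281 to -0.274, log2 difference from basal WT), and replicate 1 stood low for Cox6a1 (10.9 against 13.5 to 13.8). In basal Sesn2SkM-Tg, replicate 2 stood high for Cox7a1 (597 against 280.3 to 321) and Cox6a1 (26.3 against 14.3 to 15.5). In immobilized Sesn2SkM-Tg, replicate 2 had a Cox8b to Cox8a log2 ratio of 2.95 against 3.65 to 3.74.

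In basal WT of set 2, replicate 2 stood high for Sdhd (296 against 265 to 269), Atp5sl (45.1 against 38.4 to 39.5), Atp5b (3380 against 3067 to 3073) and the complex V median (0.151 against -0.063 to -0.033). Sdhd was also high in denervated replicate 4 (107 against 95.6 to 97.3) and in immobilized WT replicate 4 of set 2 (157 against 139 to 141). Ndufb10 was high in basal Sesn1KO replicate 3 (270.4 against 228 to 232). The Cox7a1 to Cox7a2 log2 ratio was high in basal WT replicate 3 of set 1 (1.24 against 0.76 to 0.82) and in immobilized WT replicate 1 of set 2 (1.13 against 0.80 to 0.83).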

How the results depend on the processing

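Depth is unknown, and the number of libraries and their spread limit the precision, most of all in set 1. Of 6373 values of named members under an alternative, 5968 kept their side of the threshold, though 87 values that were not called in either setting changed sign. The call was lost for 330 and gained for 74, and 1 called value changed sign: Atp5b in denervated against immobilized WT, at 0.10 under quantile normalization (adjusted p = 0.434). The cause was not tested.

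Total scaling gave 10 calls in immobilized WT of set 1, 11 in Sesn1SkM-Tg, 10 in Sesn2SkM-Tg and 44 in denervated against immobilized WT, and medians of -0.16 in Sesn1SkM-Tg, -0.18 in Sesn2SkM-Tg, -0.27 in WT of set 2, -0.59 in denervation and -0.27 in denervated against immobilized WT. Quantile normalization gave 17 calls in WT of set 1 and 13 in Sesn1SkM-Tg. A fit of the compared groups alone gave 10 calls in WT of set 1, 45 in Sesn1SkM-Tg, 0 for Sesn2SkM-Tg against WT in basal and 4 in immobilized muscle. Median centring gave 1 for the last comparison. Without both high basal libraries of set 1 there were 18 calls for basal Sesn2SkM-Tg against WT and 2 for the difference between sets.

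With the replicate number as a block, Sesn1SkM-Tg immobilization gave 17 calls and Sesn2SkM-Tg against WT in immobilized muscle 1, and it moved no other count past 1.5 times; 7 libraries matched their own number best.

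Leaving out 1 library gave 8 to 39 calls in immobilized WT of set 1, 5 to 43 in Sesn1SkM-Tg, 11 to 41 in Sesn2SkM-Tg, 0 to 45 for Sesn2SkM-Tg against WT in basal and 0 to 1 in immobilized muscle, and 0 to 1 for Sesn1KO against WT in immobilized muscle. In set 2 the same step gave 50 to 63 calls in immobilized WT, 51 to 67 in Sesn1KO and 75 to 77 in denervation.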
